A study of Cucumis sativus with 8 samples.

Results

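Young fruits of a *CsIVP*-RNAi line were compared with young fruits of wild type (WT) by RNA-seq, using the 4 fruit libraries among the 8 libraries of the series. The libraries were chosen by their labels alone, 2 of them from CsIND-RNAi fruit and 2 from WT fruit, and each genotype was fitted as 1 group. The labels call the silenced gene *CsIND*. The study names it *CsIVP* (Csa6G483450) and calls the sequenced line R5, the mild one of 3 representative RNAi lines, selfed after transformation. Every plant belongs to the cucumber (*Cucumis sativus*) inbred line R1461 (inbred line 1461 in the labels), and R5 carries in addition a construct with sense and antisense fragments of *CsIVP*. Fruits were taken 4 d before anthesis, so they were ovaries of flowers that had not yet opened. Because R5 is 1 transgenic line, an effect of silencing cannot be told apart from another property of that line. The labels describe the 2 libraries of a genotype as biological replicates without saying how many plants each one holds.

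*CsIVP* encodes a basic helix-loop-helix transcription factor of the HECATE3 subfamily. In Arabidopsis, HECATE genes act in the development of the stigma and transmitting tract, and bHLH factors of this kind bind E-boxes, short DNA motifs of the form CANNTG. In plants, jasmonate and ethylene are hormones of wounding, defense and ripening, while receptor kinases, resistance proteins and glutathione transferases belong to the machinery that perceives and detoxifies foreign molecules. A young green ovary also carries chloroplasts and expresses genes of the light-harvesting complexes.

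Designed sequences that define the silenced gene, and 3 of the promoter probes made to test its binding, are shown here because the fruit levels of the same 4 genes are given next. A probe was also made for the promoter of *CsAUX4*, an auxin response gene, which is not analysed here. The parts of the cloning primers shared by the sense and antisense arms bound the silenced fragment of *CsIVP* on chromosome 6, and the probes for *CsYAB5* and *CsBP* on chromosome 2 and *CsCCR1* on chromosome 3 each hold 1 E-box, set in capitals. All are written 5′ to 3′ as the study designed them.
CsIVP RNAi fragment, forward primer: atcacctctcaaaccctcc
CsIVP RNAi fragment, reverse primer: gatacatcatctccttcatcgc
CsYAB5 probe: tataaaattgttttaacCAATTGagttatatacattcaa
CsBP probe: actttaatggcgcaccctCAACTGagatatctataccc
CsCCR1 probe: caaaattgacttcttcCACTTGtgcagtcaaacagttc

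*CsIVP* itself was at 42.3 and 52.1 RPM in R5 fruit, against 49.98 and 38.3 RPM in WT fruit (RPM, the reads of a gene per 1000000 reads counted on genes). The ranges of the genotypes overlapped, and the log2 fold change was 0.10 (SE 0.16, adjusted p = 0.842 from limma). RNA of the introduced fragments would be counted on the same gene, and in these values it cannot be told apart from the native transcript. In the leaf vein libraries of the series, *CsIVP* was at 0 RPM in all R5 and all WT libraries. The source of the reads counted in R5 fruit was not tested. The level of *CsIVP* therefore does not separate the fruit libraries, and every direction below rests on their labels as R5 or WT. For R5 plants, the study itself reports a strong reduction of the *CsIVP* transcript by qRT-PCR. It also reports less CsIVP protein by immunoblot of leaf tissue. Those measurements are separate from the libraries used here. Of the 3 genes whose probes are shown, *CsYAB5* (Csa2G006820), a YABBY regulator of organ polarity, was at 15.6 and 13.2 RPM in R5 fruit and 12.7 and 14.9 RPM in WT fruit (log2 fold change 0.06, SE 0.16, adjusted p = 0.899). *CsBP* (Csa2G352430), a KNOX homeobox gene, was low throughout, at 1.41 and 0.644 RPM in R5 fruit and 0.410 and 1.22 RPM in WT fruit (adjusted p = 0.853). In both genes the genotypes overlapped. *CsCCR1* (Csa3G717370), a cinnamoyl-CoA reductase of lignin synthesis, was at 12.7 and 2.16 RPM in R5 fruit and 1.05 and 0.522 RPM in WT fruit. Both R5 libraries were above both WT libraries, but the R5 libraries lay far apart, and the log2 fold change of 2.24 (SE 0.73) did not pass the test (adjusted p = 0.242).

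The 2 R5 libraries held 18389219 and 21747929 reads and the 2 WT libraries 21968186 and 22979345 reads, so that a count of 0 allows 0.131 to 0.163 RPM (3 reads, counting error only). Across genes, which are not independent replicates, log2 levels of the 2 R5 libraries had an r of 0.984 and those of the 2 WT libraries an r of 0.988. Of the genes tested, 381 were over 2-fold apart between the R5 libraries and 263 between the WT libraries. Summed levels of 24 leaf (photosynthesis) marker genes were 4612 and 3860 RPM in R5 fruit, against 5495 and 5594 RPM in WT fruit, while 6 phloem markers summed to 151 and 147 RPM in R5 fruit and 156 and 127 RPM in WT fruit. Xylem and lignin markers (12 genes) summed to 101 and 142 RPM in R5 fruit and 211 and 188 RPM in WT fruit. Most of that WT sum came from the *CCR-like* genes Csa6G091870 and Csa3G598910. They were at 27.2 and 29.8 RPM and at 2.18 and 48.4 RPM in R5 fruit, against 87.9 and 64.0 RPM and 67.9 and 63.3 RPM in WT fruit. Of the 10 tested markers of this set, 4 had a positive log2 fold change, and the median was -0.07. The 5 pollen-annotated genes summed to 535 and 633 RPM in R5 fruit against 648 and 927 RPM in WT fruit. In whole fruits, fewer cells of a type and less RNA per cell cannot be told apart, and the part of tissue makeup in the results was not tested.

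Far more genes rose than fell in R5 fruit. Of 17437 genes tested, 197 were called up, which is 1.13% of the genes tested, and 28 were called down, or 0.161% (limma, Benjamini-Hochberg adjusted p under 0.05 and at least 2-fold). The called increases had a median log2 fold change of 1.95, with 94 genes at least 4-fold and 24 at least 8-fold higher, and the called decreases a median of -1.63, with 6 genes at least 4-fold lower. Many increases started from little or no expression, since 31 of the 197 genes averaged under 1 RPM in WT fruit, but 151 averaged at least 10 RPM in R5 fruit. Together the genes called up made 11150 and 10400 RPM in R5 fruit, against 3612 and 3249 RPM in WT fruit. Those called down made 974 and 1089 RPM in R5 fruit, against 3406 and 3209 RPM in WT fruit. No called gene had overlapping genotypes, but both R5 libraries lay above both WT libraries in 23.1% and below them in 23.5% of all genes tested. The median log2 fold change over all genes tested was -0.01, so the excess of increases did not go with a shift of the whole distribution.

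**Figure D1:**
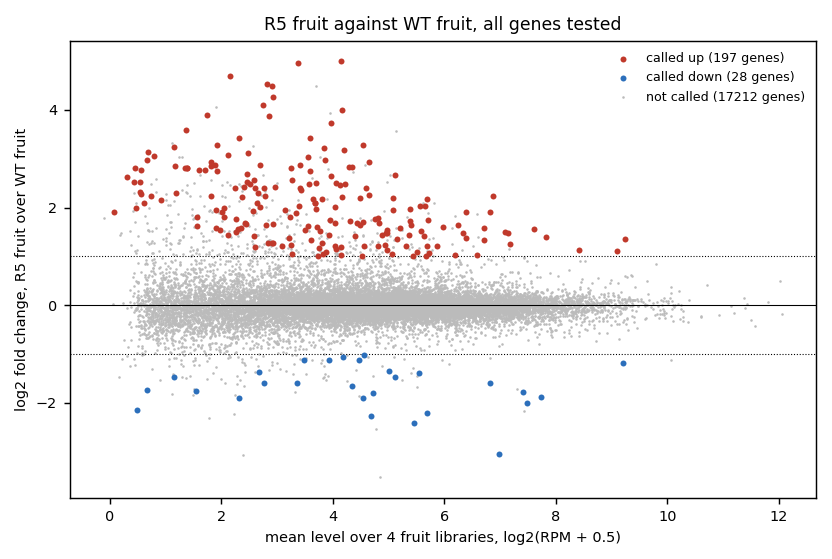
Log2 fold change (R5 fruit over WT fruit) against mean level of every gene tested, on a log2(RPM + 0.5) scale, with the 2-fold limits dotted. The 197 genes called up (red) reach 4.99 at the top, and the 28 called down (blue) are fewer and reach -3.04.

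The numbers of calls moved with single libraries and with the test. They were 135 up and 20 down without R5 replicate 1, 339 and 71 without R5 replicate 2, 177 and 26 without WT replicate 1, and 109 and 34 without WT replicate 2. A total of 72 of the 197 increases and 11 of the 28 decreases were called with each library left out in turn. Each of these fits sets 1 library of a genotype against 2 of the other, so its spread comes from the genotype with 2 libraries, and the lone library is assumed to vary alike. When the vein libraries entered the fit, 75 increases and 9 decreases remained, all of them among the 197 and 28, whereas edgeR's exact test called 460 and 85 and DESeq2 391 and 58.

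On the log2(RPM + 0.5) scale, the largest called increase was that of Csa3G002400, annotated as *acyl activating enzyme 1*, a member of the family that joins organic acids to coenzyme A. It was at 82.6 and 119 RPM in R5 fruit, against 2.504 and 2.79 RPM in WT fruit (log2 fold change 4.99, SE 0.20, adjusted p = 0.00150). *RNA-dependent RNA polymerase 1* (Csa5G544050), which in Arabidopsis copies single-stranded RNA into double-stranded RNA during antiviral silencing, was at 39.4 and 31.0 RPM in R5 fruit, against 1.09 and 1.09 RPM in WT fruit (4.48, SE 0.19, adjusted p = 0.00150). In both genes the lowest R5 library was far above the highest WT library. A cytochrome P450 gene (Csa3G643770), one of a large family of oxygenases, was at 82.3 and 61.5 RPM in R5 fruit and 4.42 and 3.66 RPM in WT fruit (3.99, SE 0.18, adjusted p = 0.00157). These 3 genes, the hydrolase gene Csa6G401340 (4.69, SE 0.44, adjusted p = 0.00914), the unnamed Csa5G515060 (4.53, SE 0.30, adjusted p = 0.00359) and the P-loop ATPase gene Csa5G292250 (4.09, SE 0.42, adjusted p = 0.0120) kept their calls with each library left out. The R5 libraries were 31.5 and 15.5 RPM for the hydrolase and 42.6 and 17.3 RPM for the ATPase, against at most 0.728 and 1.37 RPM in WT fruit. The order at the top depends on the scale, since with a pseudocount of 0.1 the hydrolase gene Csa6G401340 was ahead of Csa3G002400 (5.67 against 5.18), as it was in edgeR (5.79 against 5.25) and DESeq2 (5.81 against 5.26). Csa6G032470, annotated as a regulator of the endosomal ATPase Vps4, was at 76.0 and 44.0 RPM in R5 fruit and 2.55 and 0.653 RPM in WT fruit (4.96, SE 0.49, adjusted p = 0.0107), and the unnamed Csa6G486960 at 32.0 and 33.9 RPM and 2.32 and 0.566 RPM (4.27, SE 0.44, adjusted p = 0.0120). For these last genes the WT libraries differed from each other by more than 3-fold, and the calls were lost without R5 replicate 1 (adjusted p = 0.0562 and 0.0662).

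**Figure D2:**
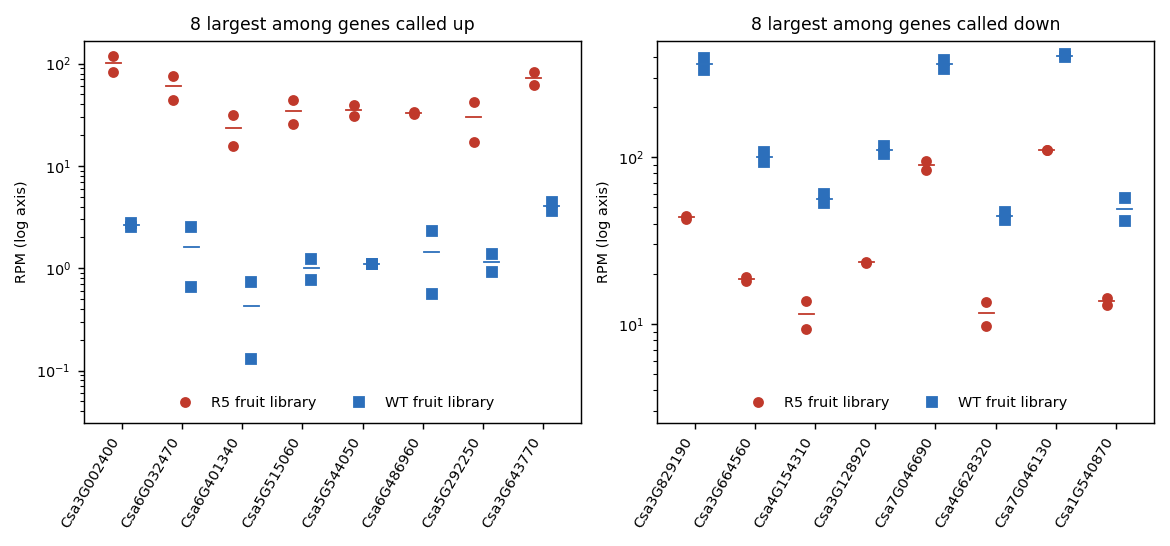
RPM (log axis) in each R5 fruit library (red circles) and each WT fruit library (blue squares) of the 8 genes with the largest called increase and the 8 with the largest called decrease on the log2(RPM + 0.5) scale among genes of at least 10 RPM, with horizontal lines at the group means. Genes were shown only if the genotypes did not overlap. Csa3G002400 stands at 82.6 and 119 RPM in R5 against 2.504 and 2.79 RPM in WT.

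Among the other genes with the smallest adjusted p, several encode ATPases and detoxifying enzymes. A row of 3 neighbouring genes was annotated *AAA-ATPase 1*, a class of proteins that use ATP to remodel other proteins, and all 3 were called up. Csa3G828430 was at 34.6 and 43.9 RPM in R5 fruit, against 3.69 and 2.79 RPM in WT fruit (log2 fold change 3.41, SE 0.20, adjusted p = 0.00294). Csa3G828930 was at 45.7 and 58.6 RPM in R5 fruit, against 7.47 and 6.27 RPM in WT fruit (2.83, SE 0.17, adjusted p = 0.00299). A further gene of that name on chromosome 1, Csa1G045660, was at 58.5 and 53.8 RPM in R5 fruit and 4.69 and 3.05 RPM in WT fruit (3.72, SE 0.21, adjusted p = 0.00293). In these 3 genes the R5 libraries were many times above the WT libraries, and the calls held with each library left out. The remaining gene of the row, Csa3G827930, was at 9.08 and 4.51 RPM in R5 fruit, against 0.410 and 0.566 RPM in WT fruit (2.81, SE 0.36, adjusted p = 0.0243), and its call was lost without R5 replicate 1, WT replicate 1 or WT replicate 2 (adjusted p = 0.0736, 0.0695 and 0.0654). Whether these genes are near copies of each other was not checked, and reads that match several of them may have been dropped or misplaced in counting. Calls of the same strength were those of the P-loop ATPase genes Csa5G266820 (3.03, SE 0.17, adjusted p = 0.00294) and Csa6G504490 (2.46, SE 0.13, adjusted p = 0.00222), of *receptor like protein 6* (Csa6G080320, 2.39, SE 0.14, adjusted p = 0.00294), a cell-surface receptor with leucine-rich repeats, and of a gene annotated to heavy metal transport or detoxification (Csa5G140450, 3.29, SE 0.20, adjusted p = 0.00309). *Ammonium transporter 1;1* (Csa2G163170), a carrier for ammonium uptake, rose more modestly, to 67.1 and 97.3 RPM in R5 fruit, against 29.0 and 27.02 RPM in WT fruit (1.51, SE 0.18, adjusted p = 0.0198), and its call was lost without WT replicate 2 (adjusted p = 0.0726).

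Glutathione transferases, which attach glutathione to reactive or foreign compounds, were called up in 3 of the 24 tested genes of that name, with a median log2 fold change of 0.85 over the list, against 1.13% called up and a median of -0.01 for all genes tested. *Glutathione S-transferase tau 9* (Csa1G033120) was at 62.2 and 48.5 RPM in R5 fruit, against 5.37 and 5.83 RPM in WT fruit (3.18, SE 0.16, adjusted p = 0.00222). *Glutathione S-transferase TAU 23* (Csa3G133880) was at 22.2 and 27.5 RPM in R5 fruit and 3.73 and 2.52 RPM in WT fruit (2.82, SE 0.22, adjusted p = 0.00569). Both calls held with each library left out, while that of the neighbouring tau 9 copy Csa1G033160 (1.61, SE 0.20, adjusted p = 0.0229) was lost without WT replicate 2 (adjusted p = 0.0869). A Gene Ontology list for the same activity had 2 of 32 tested genes called up and a median of 0.06. Its members were not selected by expression, but the study reported the term for genes changed in R5 vein. The list by name could draw only on genes that the study had listed, largely as changed in R5 vein, and is not independent evidence of a direction. The sequences of these genes were not compared, and reads that match several of them may have been dropped or misplaced in counting.

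The jasmonate list was found by the words lipoxygenase, allene oxide, jasmonate and JAZ in gene names. Such words do not tell lipoxygenases of jasmonate synthesis from other lipoxygenases. Of its genes, 4 of 23 tested were called up and 0 called down, against 1.13% and 0.161% of all genes tested. The median log2 fold change of the list was 0.85. *Allene oxide cyclase 3* (Csa5G366670), an enzyme of the committed part of jasmonate synthesis, was at 117 and 102 RPM in R5 fruit, against 34.6 and 36.8 RPM in WT fruit (1.605, SE 0.10, adjusted p = 0.00343). The R5 libraries were about even and well above WT, and the call held with each library left out. A pair of *lipoxygenase 1* genes, whose Arabidopsis match oxygenates free fatty acids, were among the 3 most abundant genes called up. Csa2G023940 was at 1110 and 851 RPM in R5 fruit, against 457 and 315 RPM in WT fruit (1.36, SE 0.21, adjusted p = 0.0461), and Csa2G024440 at 838 and 767 RPM in R5 fruit, against 395 and 344 RPM in WT fruit (1.12, SE 0.12, adjusted p = 0.0126). The first call was lost without R5 replicate 1 (adjusted p = 0.137) or WT replicate 2 (adjusted p = 0.164), and the second without WT replicate 2 (adjusted p = 0.0988). Reads that match both of these neighbouring genes may likewise have been dropped or misplaced in counting. *Jasmonate-zim-domain protein 8* (Csa6G523460), one of the JAZ repressors that jasmonate both induces and degrades, was at 17.1 and 20.5 RPM in R5 fruit and 6.60 and 5.74 RPM in WT fruit (1.53, SE 0.17, adjusted p = 0.0157), and its call too was lost without WT replicate 2 (adjusted p = 0.0714). In 18 of the 23 genes both R5 libraries were above both WT libraries, and in 4 below, against 23.1% and 23.5% of all genes tested. The 4 below included *lipoxygenase 2* genes Csa4G286950 and Csa4G286940, at 67.2 and 66.0 RPM and at 74.2 and 74.8 RPM in R5 fruit, against 86.9 and 141 RPM and 88.4 and 159 RPM in WT fruit (adjusted p = 0.207 and 0.317).

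The ethylene list had 4 of 16 tested genes called up and 0 called down, against 1.13% and 0.161% of all genes tested, with a median log2 fold change of 1.22. *Ethylene response factor 1* (Csa2G177210), a transcription factor of ethylene and jasmonate responses, was at 13.7 and 9.33 RPM in R5 fruit, against 0.774 and 0.653 RPM in WT fruit (3.28, SE 0.26, adjusted p = 0.00566). It stayed called with each library left out. An *ethylene-forming enzyme* gene (Csa6G421630), named for the oxidase of the last step of ethylene synthesis, was at 125 and 82.5 RPM in R5 fruit, against 20.03 and 29.6 RPM in WT fruit (2.04, SE 0.25, adjusted p = 0.0221). This call was lost without R5 replicate 1 (adjusted p = 0.0639). The second *ethylene response factor 1* gene, Csa3G135120 (1.69, SE 0.26, adjusted p = 0.0446), lost its call without R5 replicate 1, WT replicate 1 or WT replicate 2 (adjusted p = 0.145, 0.0696 and 0.172), and *ethylene responsive element binding factor 1* (Csa3G017320; 1.75, SE 0.25, adjusted p = 0.0349) without R5 replicate 1 or R5 replicate 2 (adjusted p = 0.128 and 0.0734). Other members were far higher in R5 replicate 1 than in R5 replicate 2. *ACC synthase 1* (Csa4G049610), the enzyme that makes the ethylene precursor, was at 13.7 and 1.70 RPM in R5 fruit and 0.774 and 0.435 RPM in WT fruit (adjusted p = 0.272). *Erf domain protein 9* (Csa7G049230) was at 70.6 and 13.6 RPM in R5 fruit and 7.15 and 5.96 RPM in WT fruit (adjusted p = 0.236). In these genes the R5 libraries were both above WT but several-fold apart, so the difference did not pass the test.

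**Figure D3:**
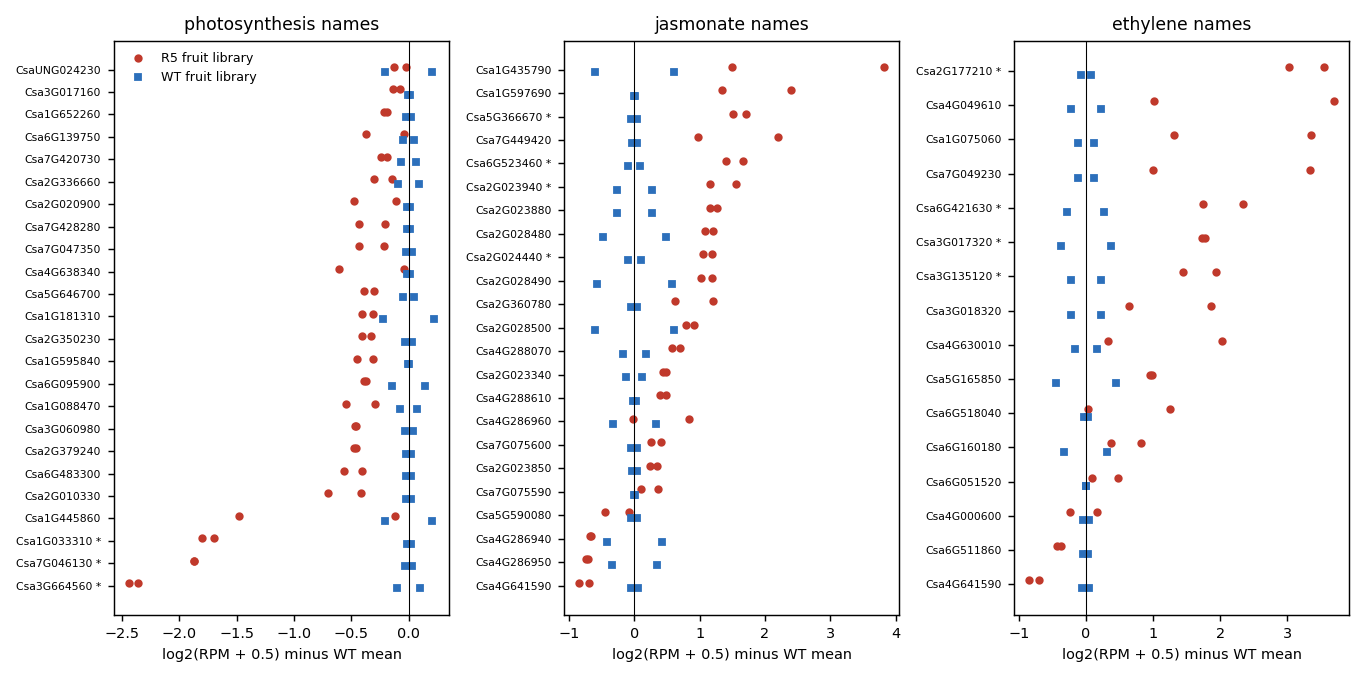
Level of each tested photosynthesis, jasmonate and ethylene gene in the 2 R5 fruit libraries (red circles) and the 2 WT fruit libraries (blue squares), as log2(RPM + 0.5) minus the mean of the WT libraries, with called genes marked by an asterisk. Most jasmonate and ethylene genes lie to the right in R5, some with R5 libraries far apart, and the photosynthesis genes lie to the left.

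Nearly all calls among signalling and defense genes were increases, but so were 197 of the 225 calls over all genes tested. Of 259 tested genes on the study's signalling list, 19 were called up and 1 down (7.34% and 0.386%, against 1.13% and 0.161% of all genes tested), with a median log2 fold change of 0.34. Of 254 genes with kinase in the name, 17 were called up and 0 down (median 0.29). The hormone list had 13 of 152 up and 1 down, and the development list 7 of 122 up and 1 down. Defense words, such as chitinase, WRKY and disease resistance, matched 48 tested genes, of which 3 were called up and 0 down (median 0.38). Phenylpropanoid genes had 1 of 23 called up and 0 down (median 0.60), a dirigent-like gene (Csa4G280630) of the family that guides lignan and lignin coupling, at 61.9 and 37.3 RPM in R5 fruit, against 17.8 and 16.8 RPM in WT fruit (1.45, SE 0.23, adjusted p = 0.0486). That call was lost without WT replicate 1 or 2 (adjusted p = 0.117 and 0.175). In 8 of the 23 genes R5 replicate 1 stood over 2-fold above R5 replicate 2, and the reverse held for 0. Among them, a *phenylalanine ammonia-lyase 2* gene (Csa6G445780), of the entry step to phenylpropanoids, was at 16.8 and 2.16 RPM in R5 fruit and 1.28 and 0.305 RPM in WT fruit (adjusted p = 0.273). Genes named as transporters had 1 of 76 called up and 1 down. All of these lists, like the jasmonate and ethylene ones, were drawn from tables of genes the study found changed in R5 vein, which shares no library with fruit but is the same line.

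**Figure D4:**
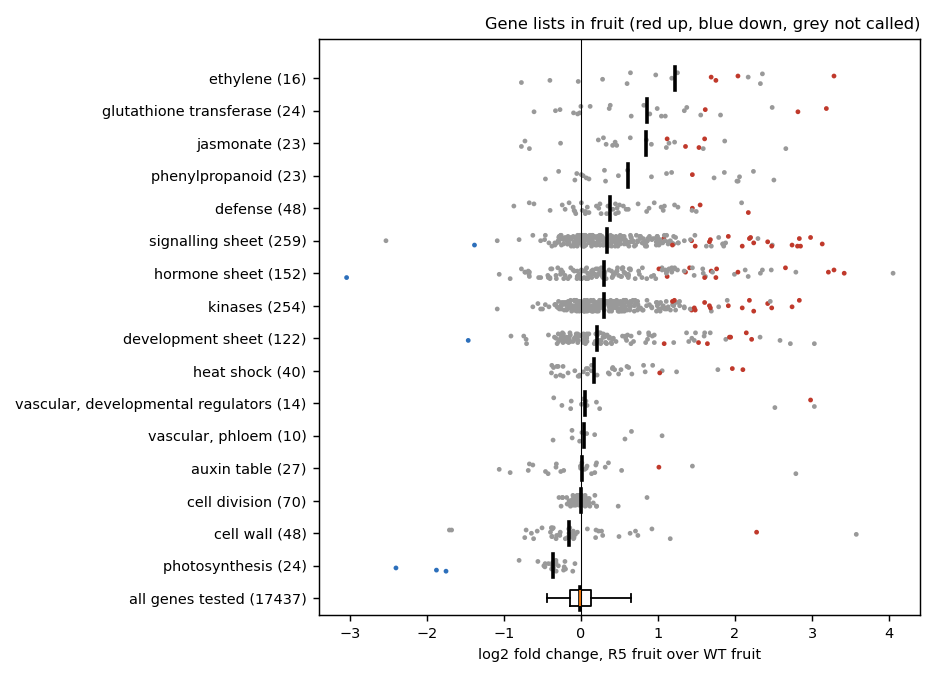
Log2 fold change in fruit of the tested members of 16 gene lists (1 point per gene, number tested in brackets), with a black line at each median and, at the bottom, all 17437 genes tested as a box from the 25th to the 75th percentile with whiskers at the 5th and 95th. Medians run from 1.22 (ethylene) to -0.36 (photosynthesis), and that of all genes is -0.01.

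Cysteine-rich receptor-like kinases gave 6 called increases within a short stretch of chromosome 1. They are membrane kinases with extracellular cysteine motifs that are induced by pathogens in Arabidopsis. Reads that match several of these genes may have been dropped or misplaced in counting. Csa1G065930 was at 42.4 and 67.5 RPM in R5 fruit, against 7.19 and 6.96 RPM in WT fruit (2.83, SE 0.22, adjusted p = 0.00569), and Csa1G064850 at 30.1 and 31.0 RPM in R5 fruit, against 3.37 and 5.09 RPM in WT fruit (2.74, SE 0.21, adjusted p = 0.00512). Both stayed called with each library left out. Their neighbours Csa1G065920 (2.48, SE 0.26, adjusted p = 0.0143) and Csa1G065420 (2.42, SE 0.35, adjusted p = 0.0356) were called up too, the first not without WT replicate 2 (adjusted p = 0.0521) and the second not without WT replicate 1 or 2 (adjusted p = 0.103 and 0.0869). The calls of the smaller increases of Csa1G064820 (1.44, SE 0.21, adjusted p = 0.0349) and Csa1G064830 (1.605, SE 0.26, adjusted p = 0.0486) were lost without WT replicate 1 (adjusted p = 0.0964 and 0.0789) or WT replicate 2 (adjusted p = 0.127 and 0.186), and that of Csa1G064830 also without R5 replicate 2 (adjusted p = 0.0641). *Calmodulin-like 11* (Csa3G144210), named for the calcium sensor family, was at 49.3 and 32.7 RPM in R5 fruit and 5.69 and 3.79 RPM in WT fruit (2.98, SE 0.26, adjusted p = 0.00793). A resistance gene of the TIR-NBS-LRR class (Csa2G020870), a family of intracellular pathogen receptors, was at 34.5 and 25.0 RPM in R5 fruit and 6.69 and 5.61 RPM in WT fruit (2.17, SE 0.20, adjusted p = 0.00869). A pathogenesis-related gene (Csa6G338110) was at 56.7 and 50.1 RPM in R5 fruit and 19.0 and 16.9 RPM in WT fruit (1.55, SE 0.12, adjusted p = 0.00559). In each of these last 3 genes the lowest R5 library was above the highest WT library by over 2-fold, and the calls held with each library left out.

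Transcription factor genes of the NAC family and heat shock genes were among the increases as well. *NAC transcription factor-like 9* (Csa1G572390), of the plant-specific NAC family, was at 59.9 and 72.1 RPM in R5 fruit, against 15.8 and 17.7 RPM in WT fruit (1.94, SE 0.13, adjusted p = 0.00355), and its call held with each library left out. *NAC domain containing protein 36* (Csa6G127320) was at 13.5 and 9.15 RPM in R5 fruit and 3.23 and 2.00 RPM in WT fruit (1.93, SE 0.29, adjusted p = 0.0396), a call lost without R5 replicate 1 or WT replicate 2 (adjusted p = 0.133 and 0.129). Of 40 heat shock genes tested, 3 were called up and 0 down, against 1.13% and 0.161% of all genes tested, with a median of 0.17. *Heat shock factor 4* (Csa6G490870) was at 30.8 and 22.1 RPM in R5 fruit and 6.83 and 4.74 RPM in WT fruit (2.10, SE 0.24, adjusted p = 0.0174), a call lost without R5 replicate 1 (adjusted p = 0.0662). A methyltransferase gene on the development list (Csa4G354130) rose to 42.5 and 34.3 RPM in R5 fruit, against 8.69 and 7.05 RPM in WT fruit (2.21, SE 0.17, adjusted p = 0.00530).

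The third of the most abundant genes called up was Csa6G445120, which Gene Ontology lists under water transmembrane transport, the activity of aquaporins. It was at 544 and 465 RPM in R5 fruit, against 242 and 219 RPM in WT fruit (1.13, SE 0.11, adjusted p = 0.0120), and its call was lost without WT replicate 2 (adjusted p = 0.0766). It was the 1 called gene among 28 tested genes of that list (3.57%, against 1.13% of all genes tested called up), whose median was -0.11.

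The 28 genes called down were led by Csa3G829190, a gibberellin-regulated (GASA-type) gene for a small cysteine-rich peptide. It was at 42.7 and 44.3 RPM in R5 fruit, against 333 and 393 RPM in WT fruit (-3.04, SE 0.10, adjusted p = 0.00150). The unnamed Csa3G128920 was at 23.7 and 23.3 RPM in R5 fruit, against 105 and 117 RPM in WT fruit (-2.21, SE 0.10, adjusted p = 0.00150), and Csa4G154310 at 13.7 and 9.29 RPM in R5 fruit, against 53.2 and 59.8 RPM in WT fruit (-2.27, SE 0.19, adjusted p = 0.00683). In these genes both R5 libraries were several-fold below both WT libraries. Csa4G628320 (-1.91, SE 0.18, adjusted p = 0.00914) and Csa1G540870 (-1.79, SE 0.17, adjusted p = 0.00914), both unnamed, fell as well, and all 5 stayed called with each library left out. The most abundant called decrease, Csa6G518000, was at 353 and 439 RPM in R5 fruit and 967 and 823 RPM in WT fruit (-1.18, SE 0.15, adjusted p = 0.0241), and its call was lost without R5 replicate 1, WT replicate 1 or WT replicate 2 (adjusted p = 0.0713, 0.0950 and 0.0634). Of the 28, 7 have a name, against 147 of the 197 genes called up and 2886 of all 17783 genes. Names come from the study's tables, largely of genes changed in R5 vein, where 167 of the 197 were called up as well.

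Photosynthesis genes were lower in R5 fruit as a group, mostly by small amounts. All 24 tested genes named for a photosystem, chlorophyll or light harvesting had a negative log2 fold change, with a median of -0.36. In 21 of them both R5 libraries were below both WT libraries, against 23.5% of all genes tested, and in 0 above. Only 3 were called down, against 0.161% of all genes tested. The names come from the study's tables of genes changed largely in vein, where all 24 were negative as well, so the list is not independent evidence of a direction. *Light-harvesting chlorophyll-protein complex II subunit B1* (Csa3G664560), an antenna protein of photosystem II, was at 18.1 and 19.1 RPM in R5 fruit, against 107 and 93.5 RPM in WT fruit (-2.40, SE 0.11, adjusted p = 0.00150). *Photosystem II reaction center PSB29* (Csa7G046130), a chloroplast protein, was at 110 and 110 RPM in R5 fruit, against 413 and 398 RPM in WT fruit (-1.87, SE 0.08, adjusted p = 0.00150). Both calls held with each library left out, while that of the weakly expressed *light-harvesting complex I subunit A4* (Csa1G033310; -1.75, SE 0.22, adjusted p = 0.0241) was lost without R5 replicate 1, WT replicate 1 or WT replicate 2 (adjusted p = 0.0799, 0.106 and 0.127). The most abundant member, *chlorophyll A/B binding protein 1* (Csa6G139750), was at 2039 and 1621 RPM in R5 fruit and 2027 and 2174 RPM in WT fruit, with overlapping genotypes (-0.21, SE 0.17, adjusted p = 0.654). These genes are also the leaf markers whose sums are given above.

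Genes that the study tied to vascular development were read in fruit next. Of 14 tested developmental regulators on its vascular list, 1 was called up (7.14%, against 1.13% of all genes tested) and 0 down (median 0.06). Of 10 phloem genes, 0 were called by limma (median 0.04) and 0 by edgeR's exact test. An unadjusted limma p under 0.05 was found for 4 of the 10, against 2535 of all 17437 genes tested. *MYB116b* (Csa1G024160), a MYB transcription factor gene, had 83 and 75 reads in R5 fruit (4.51 and 3.45 RPM), against 3 and 0 reads in WT fruit (0.137 and 0 RPM). The ratio of the summed RPM was 59.0 (exact interval 19.8 to 289 at 95% confidence, counting error only), and the call (adjusted p = 0.0112) was lost without R5 replicate 1 (adjusted p = 0.0730). For its relative *MYB116* (Csa1G042350), the R5 libraries stood at 9.41 and 10.1 RPM and the WT libraries at 2.28 and 0.653 RPM, just outside the call (2.52, SE 0.42, adjusted p = 0.0518). *NAC90* (Csa6G425720) was at 21.6 and 1.75 RPM in R5 fruit and 0.683 and 0.131 RPM in WT fruit (adjusted p = 0.257), so its difference rested on R5 replicate 1.

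Of 11 cell wall and lignin genes on the same list, 1 was called down (9.09%, against 0.161% of all genes tested) and 0 up. This was the *CCR-like* gene Csa6G091870, at 27.2 and 29.8 RPM in R5 fruit, against 87.9 and 64.0 RPM in WT fruit (-1.38, SE 0.16, adjusted p = 0.0195), and the call was lost without R5 replicate 1 (adjusted p = 0.0816). A second *CCR-like* gene, Csa3G598910, was at 2.18 and 48.4 RPM in R5 fruit and 67.9 and 63.3 RPM in WT fruit, so that R5 replicate 1 alone stood far below the other libraries (-2.53, SE 1.22, adjusted p = 0.422). The auxin table had 1 of 27 tested genes called up (3.7%, against 1.13% of all genes tested). This was a *GH3* gene (Csa3G198490) of the family that conjugates hormones to amino acids. It was at 55.4 and 67.6 RPM in R5 fruit and 29.0 and 31.3 RPM in WT fruit (1.01, SE 0.12, adjusted p = 0.0228), and the call was lost without R5 replicate 2, WT replicate 1 or WT replicate 2 (adjusted p = 0.0313 with a fold under 2, 0.0877 and 0.0771). Among 6 tested genes that the study assayed by qRT-PCR, having found them changed by RNA-seq, 2 were called up (33.3%, against 1.13% of all genes tested). *Ubiquitin-conjugating enzyme 11* (Csa2G138770) was at 11.7 and 11.9 RPM in R5 fruit, against 2.23 and 1.44 RPM in WT fruit (2.42, SE 0.23, adjusted p = 0.00954), and a gene with a *DCD* (development and cell death) domain (Csa5G148780) at 158 and 113 RPM in R5 fruit, against 54.0 and 33.1 RPM in WT fruit (1.65, SE 0.26, adjusted p = 0.0446). The first of these calls was lost without R5 replicate 1 (adjusted p = 0.0547) and the second without R5 replicate 1 or WT replicate 2 (adjusted p = 0.143 and 0.0807).

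Cell division genes lay close to 0. Of 70 tested genes named for histones, cyclins, kinesins and the like, 0 were called by limma and 1 was called up by edgeR's exact test. An unadjusted limma p under 0.05 was found for 3 of the 70, against 2535 of all 17437 genes tested. The log2 fold changes of the 70 genes ran between -0.28 and 0.86 with a median of 0.01. Cell wall genes, such as expansins and xyloglucan enzymes, had a median of -0.15 with 1 of 48 called up (2.08%, against 1.13% of all genes tested). In 15 of them both R5 libraries were below both WT libraries and in 10 above, against 23.5% and 23.1% of all genes tested. The Gene Ontology lists hold members not selected by expression, but the study reported their terms for genes changed in R5 vein. Of these lists, chitinase, callose synthase (1,3-beta-D-glucan synthase), DNA polymerase, replication origin binding, serine protease inhibitor, glucose transporter and structural cell wall genes each had 0 called by limma, with medians between -0.15 and 0.08. Between 0 (of 21, replication origin binding) and 4 (of 43, DNA polymerase) genes of a list had an unadjusted limma p under 0.05. The number over all genes tested is given above. By edgeR's exact test, 3 of the 14 tested chitinase genes were called up, and 1 gene each in the DNA polymerase, structural cell wall and glucose transporter lists.

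Several increases came in rows of neighbouring genes. Cucumber identifiers carry the chromosome number and run along the chromosome, and 40 of the 197 genes called up (20.3%) were next to another gene called up among the tested identifiers, in 16 runs of 2 to 4 genes. For scale, 1.13% of all genes tested were called up, and whether the rows exceed what this share would give was not tested. The runs include the cysteine-rich kinases of chromosome 1, the *AAA-ATPase 1* genes of chromosome 3, the 2 *lipoxygenase 1* genes of chromosome 2 and 4 neighbours of chromosome 6. Where neighbours are near copies, which was not checked, reads that match several of them may have been dropped or misplaced in counting. Over the 7 chromosomes, between 0.940% (chromosome 2) and 1.43% (chromosome 5) of tested genes were called up, and between 0.0470% (chromosome 2) and 0.350% (chromosome 7) were called down.

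The decreases of chromosome 7 lay together. Of its 6 genes called down, 5 fell within 9 consecutive tested genes, Csa7G046130 to Csa7G046710, an interval singled out after its values were seen. All 9 had a lower mean in R5 fruit, 7 of them had both R5 libraries below both WT libraries, and their median log2 fold change was -1.59. Besides *PSB29*, the calls were Csa7G046690, at 83.3 and 95.3 RPM in R5 fruit, against 383 and 337 RPM in WT fruit (-2.01, SE 0.11, adjusted p = 0.00293), Csa7G046700, at 60.1 and 70.1 RPM against 198 and 195 RPM (-1.59, adjusted p = 0.00314), Csa7G046660, at 12.2 and 9.98 RPM against 39.0 and 32.7 RPM (-1.65, adjusted p = 0.00914), and *NAD(P)H dehydrogenase B1* (Csa7G046710), named for a mitochondrial NADPH-oxidizing enzyme, at 84.9 and 99.1 RPM against 328 and 306 RPM (-1.78, SE 0.10, adjusted p = 0.00294). The R5 libraries were close to each other in these genes. Of the 8 tested genes on either side, 0 were called, and their log2 fold changes ran between -0.45 and 1.04. In vein, 3 of the 9 were called down and 0 up, while 4 had a positive log2 fold change, between 0.33 and 2.30 (Csa7G046640, adjusted p = 0.0548).

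**Figure D5:**
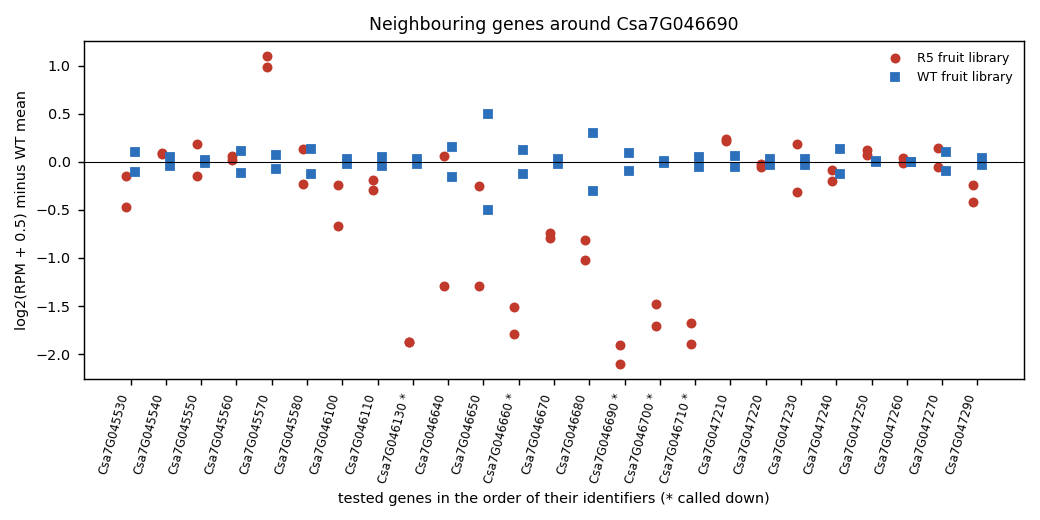
Level of 25 neighbouring genes in the 2 R5 fruit libraries (red circles) and the 2 WT fruit libraries (blue squares), as log2(RPM + 0.5) minus the mean of the WT libraries, in the order of their identifiers, with genes called down marked by an asterisk. The 9 genes from Csa7G046130 to Csa7G046710 lie lower in R5, with a median log2 fold change of -1.59, and the 8 genes on either side lie near the WT mean except for 1 at 1.04.

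The fruit calls were then read in leaf vein, with the vein libraries fitted on their own, where 10.6% of 17164 genes tested were called up and 3.22% down. Among the 197 fruit increases, 167 genes were called up in vein too (84.8% of the fruit calls and 9.18% of the vein calls), 28 had no call there and 2 were not tested. Among the 28 fruit decreases, 6 genes were called down in vein (21.4% of the fruit calls and 1.08% of the vein calls) and 22 had no call. A call in opposite directions was found for 0 genes. Both tissues come from the same line. An interaction term in limma, fitted over all 8 libraries, compared the change in fruit with that in vein. It had an adjusted p under 0.05 for 82 of the 225 fruit calls, against 2032 of all 17778 genes in that fit. For *glutathione S-transferase tau 9* (Csa1G033120), for example, the log2 fold change was 3.18 in fruit and 5.92 in vein (difference -2.74, adjusted p = 0.0175), and for the resistance gene Csa2G020870 it was 2.17 in fruit and 5.61 in vein (difference -3.44, adjusted p = 0.0104). *CsYAB5* (Csa2G006820) had 0.06 in fruit and -1.23 in vein (difference 1.29, adjusted p = 0.0270). With a fruit library left out, the *CsYAB5* difference ran between 1.18 and 1.40 and missed the threshold each time. That of Csa1G033120 also missed it each time, and that of Csa2G020870 without either WT library. Over all genes, limma gave 2032 such differences, but leaving out a fruit library gave 124 (R5 replicate 1), 275 (R5 replicate 2) and 0 (either WT replicate; 3684 and 4079 genes at unadjusted p values under 0.05).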

How the data were processed

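RNA was sequenced from young fruit and leaf vein of R5 and WT, with 2 libraries per group. Per the labels and the study's methods, the authors made strand-specific libraries (NEBNext Ultra Directional), mapped 150-bp paired reads with TopHat to the cucumber genome (version 2i), counted them with HTSeq-count and deposited 1 table of RPM values for 17783 genes; tool versions are not given in the sources used here. From these values whole reads were recovered for 100% of entries (tolerance 0.05 of a read) and used for the count tests.

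The 4 fruit libraries were fitted in limma 3.58.1 (R 4.3.3) on log2(RPM + 0.5), with a trended empirical Bayes spread, keeping the 17437 genes that reached 1 RPM in 2 or more of them. Tests were two-sided, and a call needed a Benjamini-Hochberg adjusted p under 0.05 and at least 2-fold. Fold changes are on the log2(value + 0.5) scale, which understates those of low genes. An exact permutation test of 2 against 2 cannot go below p = 0.333, so the adjusted p values rest on limma's sharing of spread between genes. Count tests on recovered reads were alternatives (edgeR 4.0.16, with 176 up and 28 down by quasi-likelihood and 460 and 85 by the exact test, and DESeq2 1.42.0); the study used edgeR without naming the test. On simulated counts, the tests were checked only for the sign and median size of set changes, and no limit was set on false calls.

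Named genes were CsIVP, the genes with probes and called genes of the study's vascular and qRT-PCR lists; the 8 largest changes per direction among called genes with no overlap and at least 10 RPM; the next 8 named genes by adjusted p; the 3 most abundant; and up to 4 called members per list, described in part. Other members given with values, and the chromosome 7 interval, were picked after their values were seen. Members and lists were chosen with earlier results of these data known. Names are those of Arabidopsis matches in the study's tables (2886 of 17783 genes); 0 identifiers matched the RefSeq table. Interaction tests used all 8 libraries.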

Additional observations from a re-analysis of the deposited data

Results flagged for a closer look

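Among the 20 genes named for the size of their change or for their level, 3 differed between the tissues in limma's interaction test. Over all genes in that fit, 2032 of 17778 did so. *Acyl activating enzyme 1* (Csa3G002400) changed less in fruit than in vein, with log2 fold changes of 4.99 and 7.37 (difference -2.38, adjusted p = 0.0324). The water transport gene Csa6G445120 was called up in fruit at 1.13 and stood at -0.48 in vein (difference 1.605, adjusted p = 0.0286). The unnamed Csa3G128920 changed by -2.21 in fruit and -0.71 in vein (difference -1.502, adjusted p = 0.0386). All 3 differences missed the threshold with any 1 fruit library left out (adjusted p between 0.0735 and 0.136) and with a replicate block (between 0.0847 and 0.0922), and that of Csa3G128920 also in edgeR's quasi-likelihood test (adjusted p = 0.0856). Within fruit, the genotypes did not overlap in these genes, but that held for every called gene and adds nothing here.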

How the results depend on the processing

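All 225 fruit calls kept their sign in every alternative that fitted them. Because no called gene had overlapping genotypes, leaving out a library or changing the pseudocount could not have reversed a sign. The kept signs are therefore no further support for the calls. The 197 increases and 28 decreases stayed within 1.5 times under both other pseudocounts, without the filter, with a stricter filter, TMM or quantile scaling and edgeR's quasi-likelihood test. They became 460 and 85 with edgeR's exact test, 391 and 58 with DESeq2, 75 and 9 in the fit over 8 libraries and 430 and 69 with a replicate block. A constant prior gave 117 increases, an adjusted p under 0.1 gave 311, and without the fold requirement 55 decreases passed. Leaving out 1 library gave 109 to 339 increases and 20 to 71 decreases. The replicate numbers mark no shared plant or batch, and same-numbered fruit libraries deviated together only weakly (r = 0.14 across genes), so the block result is given here alone. The 2032 interaction calls became 0 with the replicate block within tissue (4396 genes at an unadjusted p under 0.05) and 0 to 275 with a fruit library left out. Of 65 named calls, 34 held with each library left out and 27 in the fit over 8 libraries. The cause of these shifts was not tested. Genes not called changed sign. With 1 library left out, the log2 fold change ran between -0.091 and 0.29 for *CsIVP* (Csa6G483450), between -0.050 and 0.18 for *CsYAB5* (Csa2G006820), and between -0.22 and 0.70 for *CsBP* (Csa2G352430). With 2 libraries per genotype and 1 RNAi line, the spread between plants is poorly known.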
